A study of Mus musculus with 9 samples.

Results

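The subject is the nuclear genes that encode subunits and assembly factors of the mitochondrial respiratory complexes, measured in 3 regions of the mouse spinal cord. Members were chosen by gene symbol alone: NADH dehydrogenase genes (Ndufa, Ndufb, Ndufc, Ndufs, Ndufv), succinate dehydrogenase genes (Sdha to Sdhd), Uqcr genes, Cox4 to Cox8 genes and Atp5 genes. They numbered 90 of the 18193 genes on the array, 82 with the symbol of a subunit and 8 with the symbol Ndufaf, which stands for complex I assembly factors. Each gene was represented by 1 probe set, the one with the highest mean over the 9 arrays.

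Spinal cords of 3 GAD65-GFP mice, a reporter line named for the GABA-synthesising enzyme GAD65 and green fluorescent protein, were taken at postnatal day 6. The cord of each animal was divided into dorsal, intermediate and ventral parts, so every region had 3 arrays (n = 3), all of the same genotype and age, and no untreated or wild-type group was used here. RNA of the pieces was hybridised to Affymetrix 3' expression arrays, and the labels mention no cell sorting. The deposited values were read as log2 expression, with a lowest value, called the floor, of 2.15; differences below are on that log2 scale.

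The respiratory chain lies in the inner mitochondrial membrane. Complex I takes electrons from NADH and complex II from succinate, complex III passes them from ubiquinol to cytochrome c, complex IV passes them to oxygen, and complex V, the ATP synthase, uses the proton gradient to make ATP. Most subunits are encoded in the nucleus and imported, a few in mitochondrial DNA, and neurons depend on this pathway for much of the ATP that ion pumping uses.

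The promoters of these genes are described first, and their part in the differences between regions was not tested. RefSeq promoter windows of the mouse build GRCm38.p6, running from 250 bases before to 50 bases after a gene's start, were matched to 74 of the 90 members and gave 79 windows of 300 bases. On both strands, 4 words were searched, each known as the binding sequence of a factor that acts on mitochondrial genes: GCGCA followed after any 1 base by GCGC (bound by NRF1), CCGGAAG (ETS family, which includes GABP), AAGATGGC (YY1) and AAGGTCA (estrogen-related receptors). The NRF1-type word stood in 22.8% of the member windows and in 4.6% of all 32851 promoter windows of the same length. The ETS-type word stood in 24.1% against 8.86%, the YY1-type word in 12.7% against 2.75% and the ERR-type word in 10.1% against 4.72%. The ETS-type word stood in 25% of the 52 windows of members called lower in dorsal than in both other regions and in 24% of the 25 windows of the other tested members. In the same order, the NRF1-type word stood in 26.9% and 12%, the YY1-type word in 15.4% and 8% and the ERR-type word in 7.69% and 12%, with no test of these shares. Ndufaf2, the member with the largest ventral excess over dorsal, held none of the 4 words. A match describes the letters only and shows no binding. The 250 bases before the start are given 5′ to 3′ on the gene's strand for 5 members on which the results turn, with matches in capitals; all 5 genes lie on the minus strand. Sdha (chr13:74350241-74350490) held 3 NRF1-type matches and Uqcr11 (chr10:80406822-80407071) an ETS-type match; both are genes that were lowest in the dorsal pieces. Atp5g2 (chr15:102671048-102671297), highest in the ventral pieces, held 1 NRF1-type match, which is its own reverse complement. Cox6a1 (chr5:115348959-115349208), which was called in no comparison, held 2 NRF1-type matches and an ETS-type match. Cox6b2 (chr7:4753095-4753344), lowest in the ventral pieces, held none of the 4 words, and no match overlapped a match of another word.
Sdha: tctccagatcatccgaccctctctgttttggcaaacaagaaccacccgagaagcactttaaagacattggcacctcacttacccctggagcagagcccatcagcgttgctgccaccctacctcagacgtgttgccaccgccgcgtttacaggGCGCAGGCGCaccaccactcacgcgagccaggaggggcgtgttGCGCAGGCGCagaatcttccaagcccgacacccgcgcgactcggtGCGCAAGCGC
Uqcr11: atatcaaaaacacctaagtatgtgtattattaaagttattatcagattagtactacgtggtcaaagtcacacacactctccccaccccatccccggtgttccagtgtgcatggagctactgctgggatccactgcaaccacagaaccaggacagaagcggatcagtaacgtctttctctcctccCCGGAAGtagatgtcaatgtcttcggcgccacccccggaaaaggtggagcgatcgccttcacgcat
Atp5g2: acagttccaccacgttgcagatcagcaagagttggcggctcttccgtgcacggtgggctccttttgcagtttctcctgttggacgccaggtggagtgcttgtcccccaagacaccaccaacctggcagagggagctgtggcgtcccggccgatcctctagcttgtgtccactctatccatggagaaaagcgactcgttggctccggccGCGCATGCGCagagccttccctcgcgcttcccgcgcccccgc
Cox6a1: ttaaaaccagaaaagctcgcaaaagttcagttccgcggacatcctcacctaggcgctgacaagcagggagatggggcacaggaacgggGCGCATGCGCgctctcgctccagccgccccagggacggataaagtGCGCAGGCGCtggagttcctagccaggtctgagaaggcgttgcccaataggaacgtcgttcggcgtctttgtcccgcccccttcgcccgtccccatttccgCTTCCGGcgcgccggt
Cox6b2: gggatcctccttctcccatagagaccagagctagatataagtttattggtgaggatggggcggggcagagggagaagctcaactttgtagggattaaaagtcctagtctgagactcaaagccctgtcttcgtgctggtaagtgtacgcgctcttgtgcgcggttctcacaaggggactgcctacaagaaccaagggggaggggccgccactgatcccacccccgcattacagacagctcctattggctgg

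Of the 90 members, 6 stood at the floor on all 9 arrays and have no difference: Cox4i2, Cox6a2, Cox8b, Cox8c, Ndufa4l2 and Ndufb4. The other 84 were tested. A probe set with the several symbols Ndufb4b, Ndufb4c and Ndufb4 read a mean of 12.13, so the floor value of the Ndufb4 probe set applies to that probe set only. Of the 84, 72 had a mean of at least 10, against 3410 of the 13565 genes tested; the median member mean was 12.35 and the median over all genes tested 8.21. Among genes with a single symbol, 0 had a symbol starting with mt-, the prefix for mitochondrially encoded genes. Other spellings and probe sets with several symbols were not searched for them.

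Respiratory complex genes read lower in the dorsal pieces than in the intermediate and ventral pieces. Ordering the 3 region means of each gene placed 55 of the 84 members (65.5%) as dorsal, ventral, intermediate from low to high, and 24 (28.6%) as dorsal, intermediate, ventral; over all genes tested these orders were found in 12.1% and 29.3%. The mean over all members was 11.59, 11.74 and 11.72 in the dorsal arrays of animals 1 to 3, 11.97, 11.96 and 12.10 in the intermediate arrays and 11.94, 11.93 and 11.96 in the ventral arrays. All dorsal arrays lay below all others, and the lowest intermediate and highest ventral arrays both read 11.96 after rounding. The dorsal array of animal 1 was the lowest and the intermediate array of animal 3 the highest. In bulk pieces, fewer cells of a type and less RNA per cell cannot be told apart.

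**Figure D1:**
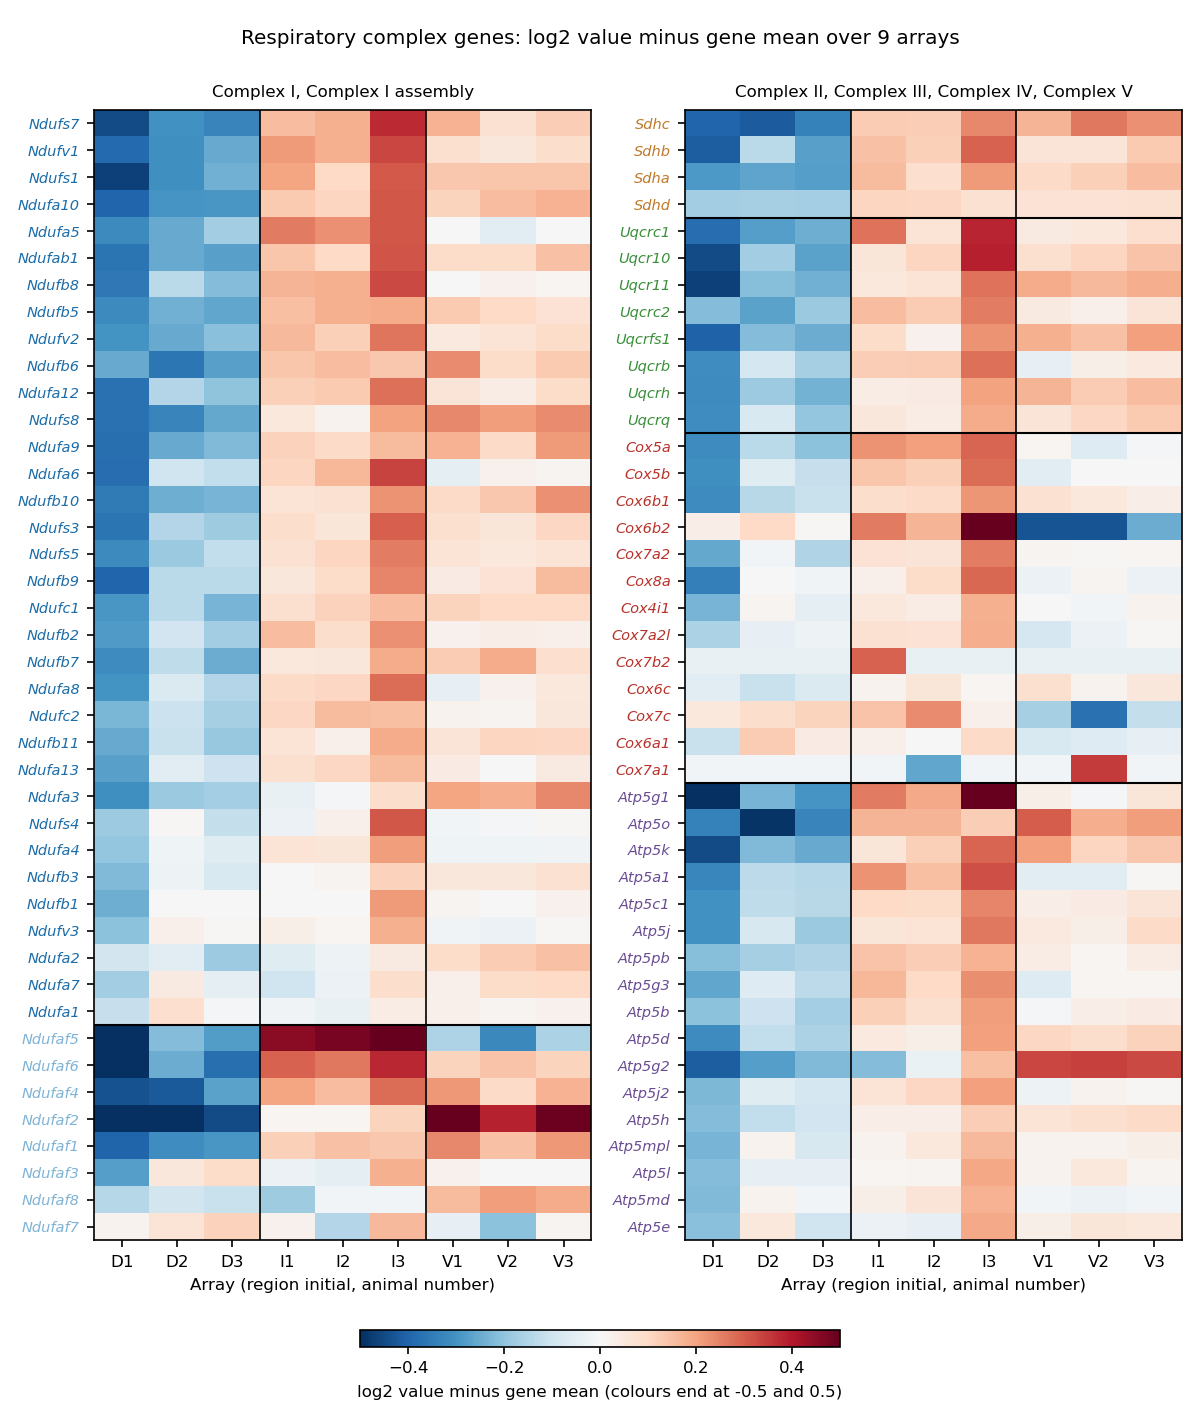
Heat map of the 84 tested members over the 9 arrays. Each row is a gene and each column an array (D dorsal, I intermediate, V ventral, with the animal number); colour is the log2 value minus the gene's mean over the 9 arrays, blue below and red above, with colours ending at -0.5 and 0.5. Gene names are coloured by complex. The 3 dorsal columns are blue for most genes of complexes I, II, III and V, while Cox6b2 and Cox7c are blue in the ventral columns instead.

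The first comparison asked how the ventral pieces, which hold the motor neurons, differed from the dorsal pieces of the same animals. With limma and Benjamini-Hochberg adjustment over all genes at 0.05, 59 of the 84 members (70.2%) were called higher in ventral, 2 (2.38%) lower and 23 not called. Over all genes tested, 29.4% were called higher and 25.6% lower, and over those with a mean of at least 10, 39.7% and 36.0%. The median member difference was 0.24, a 1.18-fold excess, beside a median of 0 over all genes. The 3 ventral arrays lay wholly above the 3 dorsal arrays for 65 members and wholly below for 3; over all genes this held for 33.5% and 28.3%. By animal, the median difference was 0.33, 0.19 and 0.22. The count called higher was 34 without animal 1 and 33 without animal 3.

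In the intermediate pieces, which hold interneurons around the central canal, 63 members (75.0%) were called higher than in dorsal, 0 lower and 21 not called. The background was 16.7% higher and 14.9% lower over all genes, and 28.5% and 21.7% at a mean of at least 10. The median difference was 0.33, a 1.26-fold excess. Intermediate arrays lay wholly above dorsal arrays for 70 members and wholly below for 0, against 22.9% and 20.6% of all genes. Per-animal medians were 0.38, 0.22 and 0.40. Leaving out animal 1 left 27 calls and leaving out animal 3 left 18, and fitting only the arrays of these regions left 32. Both comparisons use the same dorsal arrays.

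For the member genes, ventral and intermediate pieces differed less than either did from dorsal. Of the 84, 18 members (21.4%) were called lower in ventral, 5 (5.95%) higher and 61 not called. All genes tested did not share this order: 50.3% were called between ventral and intermediate and 31.6% between intermediate and dorsal. Background shares were 24.3% lower and 25.9% higher over all genes, and 38.0% and 33.6% at a mean of at least 10. The median difference was -0.07, and ventral arrays lay wholly below for 36 members and wholly above for 8, against 28.6% and 30.9% of all genes. Both member shares were below the background of genes with a mean of at least 10, and the share called lower was near that of all genes; no contrast with a background was tested. The 18 calls became 5 without animal 1, 3 without animal 3, 9 without the dorsal array of animal 3, 6 and 7 without the intermediate arrays of animals 1 and 3, and 7 without either ventral array of animals 2 and 3. The 5 calls became 3 without animal 1 and 3 without animal 2.

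**Figure D2:**
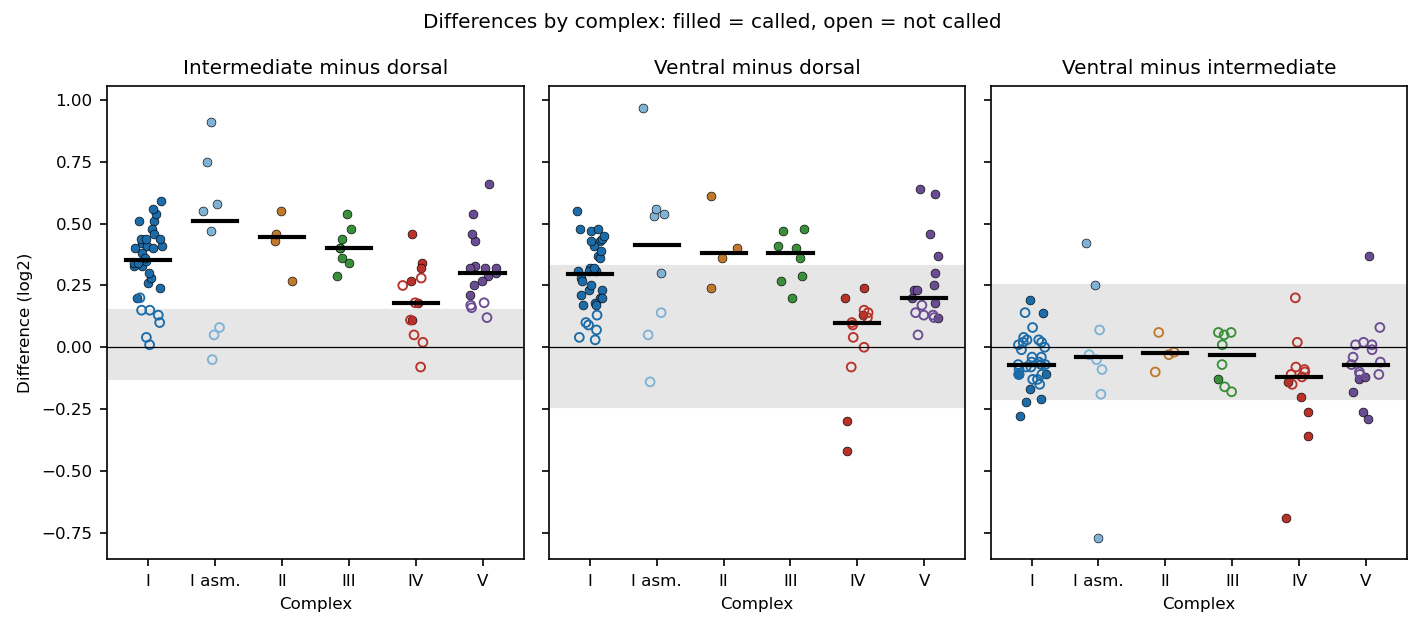
Differences of the 84 tested members by complex, in log2, for the 3 comparisons. Each point is a gene, filled where called at an adjusted p under 0.05 and open where not; black bars are medians, and the grey band runs from the lower to the upper quartile of all genes tested. In intermediate minus dorsal, the medians of complexes I, II, III and V lie between 0.30 and 0.44 and that of complex IV at 0.18, the upper edge of the band being 0.15.

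Complex I, the NADH dehydrogenase, had 34 tested members with a subunit symbol. Of these, 28 were called higher in ventral than in dorsal and 27 higher in intermediate than in dorsal, with 0 lower in either, and the median differences were 0.29 and 0.35. In ventral against intermediate, 2 (5.88%) were called higher and 6 (17.6%) lower, beside 25.9% and 24.3% of all genes. The members not called in ventral against dorsal were Ndufa1, Ndufa4, Ndufa7, Ndufb1, Ndufs4 and Ndufv3, with differences of 0.03 to 0.13. Complex I calls in ventral over dorsal numbered 17 to 29 when animals or arrays were left out in turn, and 9 to 28 in intermediate over dorsal.

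Ndufs8, an iron-sulfur subunit of the arm that carries electrons to ubiquinone, read 13.05, 13.09 and 13.17 in the dorsal arrays of animals 1 to 3, 13.47, 13.44 and 13.62 in the intermediate and 13.66, 13.63 and 13.66 in the ventral arrays. The regions did not overlap and ventral was highest. The excess over dorsal was 0.55 ± 0.04 (SE) in ventral (1.46-fold, limma adjusted p = 0.000281) and 0.41 ± 0.04 in intermediate (limma adjusted p = 0.0021). The gap between ventral and intermediate, 0.14 (limma adjusted p = 0.0362), was not seen in another probe set of the gene, which gave -0.03, and its adjusted p was 0.208 without animal 1, 0.205 without animal 2 and at most 0.408 over the alternatives.

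Ndufv1, the flavoprotein that binds NADH, read 11.94, 12.03 and 12.08 in dorsal, 12.54, 12.51 and 12.67 in intermediate and 12.41, 12.39 and 12.42 in ventral arrays. Again no region overlapped another, but here intermediate was highest. Its excess over dorsal was 0.56 ± 0.04 in intermediate (1.47-fold, limma adjusted p = 0.000852) and 0.39 ± 0.04 in ventral (limma adjusted p = 0.000741). Ventral was lower than intermediate by 0.17 (limma adjusted p = 0.0173), a call lost without animal 1 (0.0655), animal 2 (0.0679) or animal 3 (0.132). Ndufa5, an accessory subunit, had the same order with means of 12.38 in dorsal, 12.89 in intermediate and 12.61 in ventral, and its ventral against intermediate difference of -0.28 stayed called in every left-out set, with an adjusted p of at most 0.0354.

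Other members of complex I with large differences were Ndufs7, another iron-sulfur subunit, with 0.59 in intermediate over dorsal (1.51-fold, limma adjusted p = 0.00326, 0.0556 without animal 3), and Ndufb6, an accessory subunit of the membrane arm, with 0.45 in ventral over dorsal (limma adjusted p = 0.000472). Ndufa3, an accessory subunit, was highest in ventral, with means of 13.36, 13.59 and 13.79 from dorsal to ventral. Its ventral over intermediate difference of 0.19 had a limma adjusted p of 0.00574, and 0.0611 without animal 3. Ndufa4, which carries a complex I name but is now counted with complex IV, had 0.20 in intermediate over dorsal (limma adjusted p = 0.0355) and 0.07 in ventral over dorsal (0.293). The first call did not hold without animal 1 (0.182), animal 2 (0.0655) or animal 3 (0.218).

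The 8 complex I assembly factors had several different orders of the regions. Of these, 5 were called higher in ventral than in dorsal and 5 higher in intermediate than in dorsal, with medians of 0.42 and 0.51. In ventral against intermediate, 2 of the 8 were higher and 1 lower, beside 25.9% and 24.3% of all genes. The share higher was near that of all genes, and the share lower was below it. Ndufaf2, a chaperone-like factor of late complex I assembly, read 9.28, 9.22 and 9.34 in dorsal, 9.80, 9.80 and 9.90 in intermediate and 10.30, 10.17 and 10.28 in ventral arrays. Each step from dorsal through intermediate to ventral was free of overlap. Its ventral excess over dorsal, 0.97 ± 0.03 (1.96-fold, limma adjusted p = 3.64e-05), was the largest among the 84 members, and ventral exceeded intermediate by 0.42 ± 0.03 (limma adjusted p = 0.000433).

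Ndufaf5, which modifies the subunit encoded by Ndufs7, read 8.99, 9.33 and 9.27 in dorsal, 10, 10.02 and 10.30 in intermediate and 9.39, 9.22 and 9.38 in ventral arrays. Only the intermediate pieces stood apart, and dorsal and ventral overlapped. The intermediate excess over dorsal was 0.91 ± 0.11 (1.88-fold, limma adjusted p = 0.00381), ventral was lower than intermediate by 0.77 ± 0.11 (limma adjusted p = 0.00307), and ventral minus dorsal was 0.14 (0.342). Without animal 3 the first 2 adjusted p-values were 0.0805 and 0.0635.

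Ndufaf4 and Ndufaf6, further assembly factors, had differences of 0.58 and 0.75 in intermediate over dorsal and of 0.54 and 0.56 in ventral over dorsal, all called. For Ndufaf6 these calls did not hold without animal 3 (adjusted p = 0.0911 and 0.0737). Ndufaf8 was called higher in ventral than in either other region, by 0.30 over dorsal and 0.25 over intermediate. Ndufaf3 and Ndufaf7 were not called, with differences of 0.08 and -0.05 in intermediate over dorsal.

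**Figure D3:**
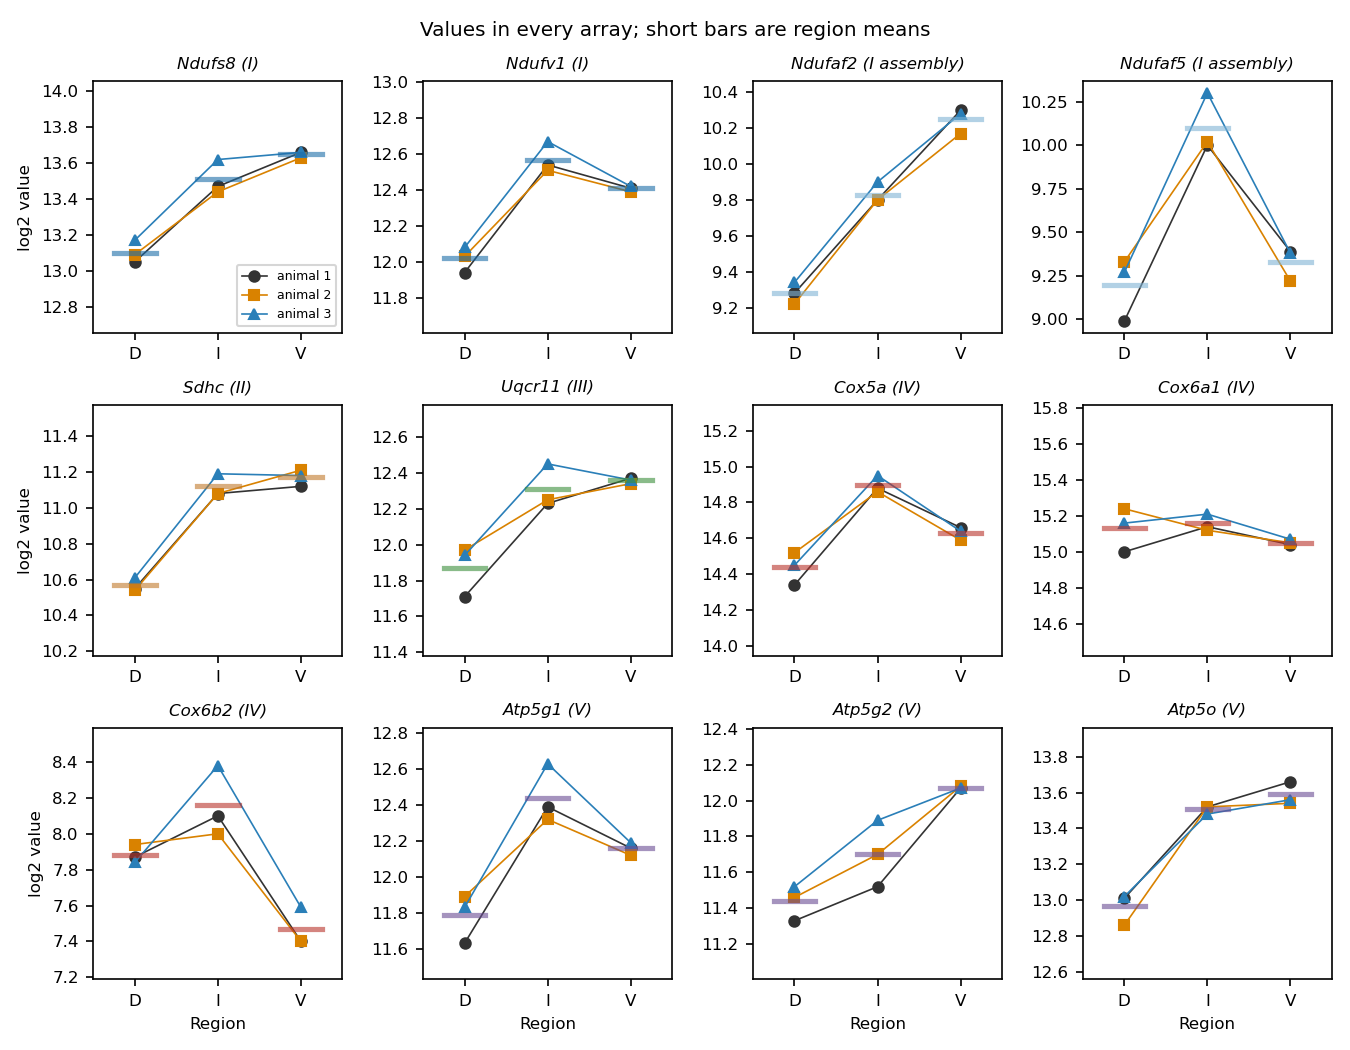
Log2 values of 12 members in every array, by region (D dorsal, I intermediate, V ventral); lines join the 3 pieces of an animal, symbols mark the animals and short bars are region means. Axes span different ranges of values. Ndufaf2 and Atp5g2 are highest in ventral, Ndufaf5 stands apart in intermediate, and Cox6b2 is lowest in ventral. The intermediate and ventral values of Cox6a1 lie within its dorsal range of 15.00 to 15.24.

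Complex II, succinate dehydrogenase, is also an enzyme of the tricarboxylic acid cycle and has only nuclear subunits. All 4 members, the catalytic subunits Sdha and Sdhb and the membrane anchors Sdhc and Sdhd, were called higher in ventral than in dorsal and in intermediate than in dorsal, with medians of 0.38 and 0.44, and none was called between ventral and intermediate (limma, 0 of 4 at adjusted p 0.05). Sdhc read 10.55, 10.54 and 10.61 in dorsal, 11.08, 11.08 and 11.19 in intermediate and 11.12, 11.21 and 11.18 in ventral arrays. Intermediate and ventral overlapped and both lay clear of dorsal. Its excess was 0.61 ± 0.03 in ventral (1.52-fold, limma adjusted p = 0.000142) and 0.55 ± 0.03 in intermediate (limma adjusted p = 0.000675). Sdha had 0.40 and 0.43, and Sdhd 0.24 and 0.27, in ventral and intermediate over dorsal. Sdhb had 0.36 and 0.46, calls that did not hold without animal 1 (adjusted p = 0.106 and 0.101) or animal 3 (0.103 and 0.126).

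Complex III, the cytochrome bc1 complex, was called throughout against dorsal: all 8 members were called higher in ventral than in dorsal (median 0.38) and in intermediate than in dorsal (median 0.40). Uqcr11, a small accessory subunit, read 11.71, 11.97 and 11.94 in dorsal, 12.23, 12.25 and 12.45 in intermediate and 12.37, 12.34 and 12.36 in ventral arrays. Dorsal stood apart, with animal 1 lowest, and the other regions overlapped. Uqcr11 exceeded dorsal by 0.48 ± 0.07 in ventral (1.40-fold, limma adjusted p = 0.00351) and by 0.44 ± 0.07 in intermediate (limma adjusted p = 0.0104, and 0.112 without animal 3, 0.0746 without animal 1 and 0.0507 without animal 2). Uqcrfs1, the Rieske iron-sulfur protein, had 0.47 in ventral over dorsal, and Uqcrc1, a core protein, 0.54 in intermediate over dorsal, a call lost without animal 1 (0.0809) or animal 3 (0.0865).

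Uqcrc2, the other core protein, was the member of complex III called between ventral and intermediate. It read 13.95, 13.90 and 13.98 in dorsal, 14.33, 14.30 and 14.42 in intermediate and 14.21, 14.20 and 14.23 in ventral arrays, with no overlap between regions. Ventral was lower than intermediate by 0.13 ± 0.02 (limma adjusted p = 0.00701, 0.056 without animal 1). Complex III calls numbered 4 to 8 in ventral over dorsal and 1 to 8 in intermediate over dorsal over the left-out sets.

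Complex IV is cytochrome c oxidase, the enzyme that reduces oxygen. Of 13 tested members, 3 were called higher in ventral than in dorsal, 2 lower and 8 not called, with a median of 0.10; the share called higher was 23.1%, beside 29.4% of all genes. In intermediate over dorsal 6 (46.2%, beside 16.7% of all genes) were higher and 7 not called (median 0.18). In ventral against intermediate 5 (38.5%) were lower and 0 higher (median -0.12). The share called lower was 24.3% over all genes and 38.0% over genes with a mean of at least 10. Over the left-out sets, 0 to 5 were called higher and 0 to 2 lower in ventral against dorsal, and 0 to 6 higher in intermediate over dorsal. Of the 13, 9 had a mean of at least 10, beside 33 of 34 in complex I and all in complexes II, III and V. The others, Cox6b2, Cox7a1, Cox7b2 and Cox7c, include both members called lower in ventral than in dorsal. Every complex IV member called higher than dorsal had a mean of at least 10, so the shares and medians also carry dim genes. No test of the difference between complexes was made.

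Cox5a, a subunit facing the matrix, read 14.34, 14.52 and 14.45 in dorsal, 14.88, 14.86 and 14.95 in intermediate and 14.66, 14.59 and 14.64 in ventral arrays. The regions did not overlap and intermediate was highest. Intermediate exceeded dorsal by 0.46 ± 0.05 (1.37-fold, limma adjusted p = 0.00358, 0.0823 without animal 3). Ventral exceeded dorsal by 0.20 ± 0.05 (limma adjusted p = 0.0276), which was lost in 8 left-out sets and was 0.153 without animal 1 and 0.174 without animal 3. Cox5b, which binds zinc, had 0.34 in intermediate over dorsal (limma adjusted p = 0.0119) and 0.14 in ventral over dorsal (0.0947); the first was 0.105 without animal 1 and 0.136 without animal 3.

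Cox6a1, the general form of a subunit whose other form Cox6a2 is known from heart and muscle, read 15.00, 15.24 and 15.16 in dorsal, 15.14, 15.12 and 15.21 in intermediate and 15.04, 15.05 and 15.07 in ventral arrays. All 3 regions lay within the range of the dorsal arrays. The differences of -0.08 in ventral and 0.02 in intermediate over dorsal were not called (limma adjusted p = 0.295 and 0.847). Another probe set of Cox6a1, with a mean of 13.47, gave 0.08 and 0.12. Cox4i1, the general form of subunit 4, and Cox8a were not called either, with 0.18 and 0.25 in intermediate over dorsal. Cox6b1, the general form of subunit 6b, was called higher in ventral (0.24) and intermediate (0.32), calls that did not hold without any of the 3 animals (adjusted p = 0.0603 to 0.097).

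Cox6b2, the form of subunit 6b known from testis, read 7.87, 7.94 and 7.84 in dorsal, 8.10, 8 and 8.38 in intermediate and 7.40, 7.40 and 7.59 in ventral arrays. Ventral lay below all others. Ventral was lower than intermediate by 0.69 ± 0.09 (limma adjusted p = 0.00249, 0.053 without animal 1) and than dorsal by 0.42 ± 0.09 (limma adjusted p = 0.0132). The second call was lost without animal 1 (0.136) or animal 2 (0.0783), and without the dorsal array of animal 1 (0.0554) or the ventral arrays of animals 1 (0.0559) and 2 (0.0554).

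Cox7c, a small accessory subunit, was the other member called lower in ventral than in dorsal. It read 6.58, 6.62 and 6.64 in dorsal, 6.67, 6.77 and 6.56 in intermediate and 6.36, 6.16 and 6.41 in ventral arrays. Ventral stood below, and dorsal and intermediate overlapped. The difference from dorsal was -0.30 ± 0.09 (limma adjusted p = 0.0399) and was lost in 9 left-out sets, with an adjusted p of 0.167 without animal 1, 0.0822 without animal 2 and 0.0912 without animal 3. The probe set used was dim for complex IV, with a mean of 6.53 beside a median of 13.75 over its 13 tested members. The other probe set of Cox7c had a mean of 4.67 and a ventral minus dorsal difference of -0.32. These values apply to those probe sets only. Forms known mainly from other tissues read low: Cox4i2, Cox6a2, Cox8b and Cox8c were at the floor on all arrays, Cox7a1 had region means of 3.20, 3.12 and 3.33, and Cox7b2 of 2.15, 2.26 and 2.15 from dorsal to ventral. Cox7a2, the general form beside Cox7a1, had 0.27 in intermediate over dorsal (limma adjusted p = 0.0451), lost in 10 left-out sets (0.234 without animal 1 and 0.27 without animal 3), and Cox7a2l, which takes part in supercomplexes of complexes III and IV, had 0.18 (limma adjusted p = 0.00787, 0.0845 without animal 1 and 0.109 without animal 3).

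Complex V, the ATP synthase, had 17 tested members. In ventral against dorsal 11 were called higher, with a median of 0.20; in intermediate against dorsal 13 were higher, with a median of 0.30, and 0 were lower in either. In ventral against intermediate, 1 (5.88%) was higher and 5 (29.4%) lower, beside 25.9% and 24.3% of all genes. Atp5e, Atp5l, Atp5md and Atp5mpl, which encode small subunits, were called in no comparison. Over the left-out sets, 5 to 14 were called in ventral over dorsal and 2 to 13 in intermediate over dorsal.

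Atp5o, which links the catalytic head to the peripheral stalk, read 13.01, 12.86 and 13.02 in dorsal, 13.52, 13.52 and 13.48 in intermediate and 13.66, 13.54 and 13.56 in ventral arrays. No region overlapped another, and dorsal was far the lowest. The excess over dorsal was 0.62 ± 0.04 in ventral (1.54-fold, limma adjusted p = 0.000279) and 0.54 ± 0.04 in intermediate (limma adjusted p = 0.00133). Atp5pb, a subunit of that stalk, had smaller differences of 0.20 in ventral and 0.32 in intermediate over dorsal, both called in every left-out set.

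The genes Atp5g1, Atp5g2 and Atp5g3 encode the same mature c subunit of the membrane rotor, and the order of their region means differed. Atp5g1 read 11.63, 11.89 and 11.83 in dorsal, 12.39, 12.32 and 12.63 in intermediate and 12.16, 12.12 and 12.19 in ventral arrays, with intermediate highest and no overlap. Atp5g2 read 11.33, 11.46 and 11.52 in dorsal, 11.52, 11.70 and 11.89 in intermediate and 12.07, 12.08 and 12.07 in ventral arrays. Here ventral was highest, and the highest dorsal and lowest intermediate arrays both read 11.52 after rounding. Before rounding, the intermediate arrays lay just above the dorsal arrays. Intermediate minus dorsal was 0.27 (limma adjusted p = 0.0431), a call lost in 9 left-out sets. Atp5g3 read 13.81, 14.00 and 13.94 in dorsal, 14.23, 14.17 and 14.30 in intermediate and 14.00, 14.08 and 14.08 in ventral arrays, an order like that of Atp5g1.

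For Atp5g1 the intermediate excess over dorsal was 0.66 ± 0.09 (1.58-fold, limma adjusted p = 0.00541), and 0.0726 without animal 1 and 0.0847 without animal 3. Its other probe set, dim with a mean of 4.35, gave -0.17 for that comparison and -0.49 for ventral minus dorsal, where the probe set used gave 0.37. For Atp5g2 the ventral excess over dorsal was 0.64 ± 0.07 (1.56-fold, limma adjusted p = 0.00118), called in every left-out set. Atp5g2 also exceeded intermediate by 0.37 ± 0.07 (limma adjusted p = 0.00945), and 0.061 without animal 1 and 0.107 without animal 2. Atp5g3 had 0.32 in intermediate over dorsal (limma adjusted p = 0.0105, 0.104 without animal 1 and 0.14 without animal 3) and 0.14 in ventral over dorsal (0.0807). Ventral minus intermediate was -0.29 for Atp5g1 (limma adjusted p = 0.0444) and -0.18 for Atp5g3 (limma adjusted p = 0.039). These calls were lost in 10 and 8 of the 12 left-out sets, with adjusted p-values of up to 0.274 and 0.254. No test of the difference between these genes was made.

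Many members have further probe sets on the array, 179 in all for the 90 genes. Among those with a mean of at least 6, 46 further probe sets of 34 called genes in ventral minus dorsal had the sign of the probe set used, except 1 of Ndufb2 at 0. In intermediate minus dorsal all 54 of 38 genes had that sign. In ventral minus intermediate, of 24 for 13 genes, the one exception was that of Ndufs8.

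Neighbouring pathways were described from lists of their own. Over all genes tested, 29.4% were called higher and 25.6% lower in ventral than in dorsal. In intermediate against dorsal, 16.7% of all genes were called higher and 14.9% lower. The tricarboxylic acid cycle, which supplies NADH and succinate, had 15 of 18 tested genes higher in ventral than in dorsal and 16 higher in intermediate than in dorsal, with 0 lower and medians of 0.27 and 0.38. Suclg2, of GTP-forming succinyl-CoA synthetase, had 1.09 in ventral over dorsal (limma adjusted p = 8.97e-05), and Dlat, of the pyruvate dehydrogenase complex, 0.65 in intermediate over dorsal (limma adjusted p = 0.00123). Glycolysis had 9 of 14 higher and 3 lower in ventral than in dorsal, while intermediate had 11 higher and 0 lower. Ldhb, a lactate dehydrogenase subunit, had 0.64 and 0.69, whereas Pfkp, a phosphofructokinase form, had -1 in ventral over dorsal (limma adjusted p = 0.000581).

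Mitochondrial ribosomal protein genes numbered 76, of which 47 were higher and 2 lower in ventral than in dorsal (median 0.27), 35 against 0 in intermediate over dorsal (median 0.20), and 19 higher and 3 lower in ventral than in intermediate. Mrpl17 had the largest ventral excess over dorsal, 0.74. For these 76 genes, the share higher in ventral than in intermediate was near the 25.9% of all genes tested. Their share lower in that comparison was below the 24.3% of all genes tested. Assembly factors outside the symbol rule had 14 of 32 higher in ventral and 13 in intermediate than in dorsal, with 0 lower; Sdhaf3, a complex II factor, had 0.75 in each. Genes of import, transport and mitochondrial shape had 6 of 18 (33.3%) higher and 2 (11.1%) lower in ventral than in dorsal. The share higher was near the 29.4% of all genes. In intermediate over dorsal 10 (55.6%) were higher and 0 lower, beside 16.7% and 14.9% of all genes. Slc25a5, an ADP/ATP carrier, had 1.08 in ventral over dorsal and Tomm70a, an import receptor, -0.48.

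Electron carriers and related proteins outside the rule had 5 of 6 tested genes higher and 1 lower in ventral than in dorsal, and 4 higher in intermediate. Cycs, cytochrome c, had 0.49 in ventral and 0.52 in intermediate, and Cyc1, cytochrome c1 of complex III, 0.40 and 0.57. Etfdh, which passes electrons from fatty acid oxidation to ubiquinone, had 0.89 in ventral (limma adjusted p = 6.93e-05). Atpif1, the inhibitor of the ATP synthase, was the gene lower in ventral, by 0.29 ± 0.04 (limma adjusted p = 0.00167).

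Among 16 tested regulators of mitochondrial gene expression, 5 (31.2%) were higher and 0 lower in ventral than in dorsal. The share higher was near the 29.4% of all genes. In intermediate against dorsal, 5 (31.2%) were higher and 2 (12.5%) lower, beside 16.7% and 14.9% of all genes. Ppargc1a, the coactivator PGC-1alpha, had region means of 9.85, 11.07 and 10.42 from dorsal to ventral, an intermediate excess of 1.22 ± 0.04 (limma adjusted p = 0.000173). Esrrg, an estrogen-related receptor, had 6.94, 9.83 and 10.01, with an excess of 3.07 ± 0.09 in ventral (limma adjusted p = 3.11e-05) and 2.89 ± 0.09 in intermediate (limma adjusted p = 0.000153). Gabpa and Yy1 were lower in intermediate than in dorsal, by 0.39 and 0.30, and Nrf1, at 6.91, 6.91 and 6.98, and Tfam, the mitochondrial DNA packaging factor, were called in no comparison.

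**Figure D4:**
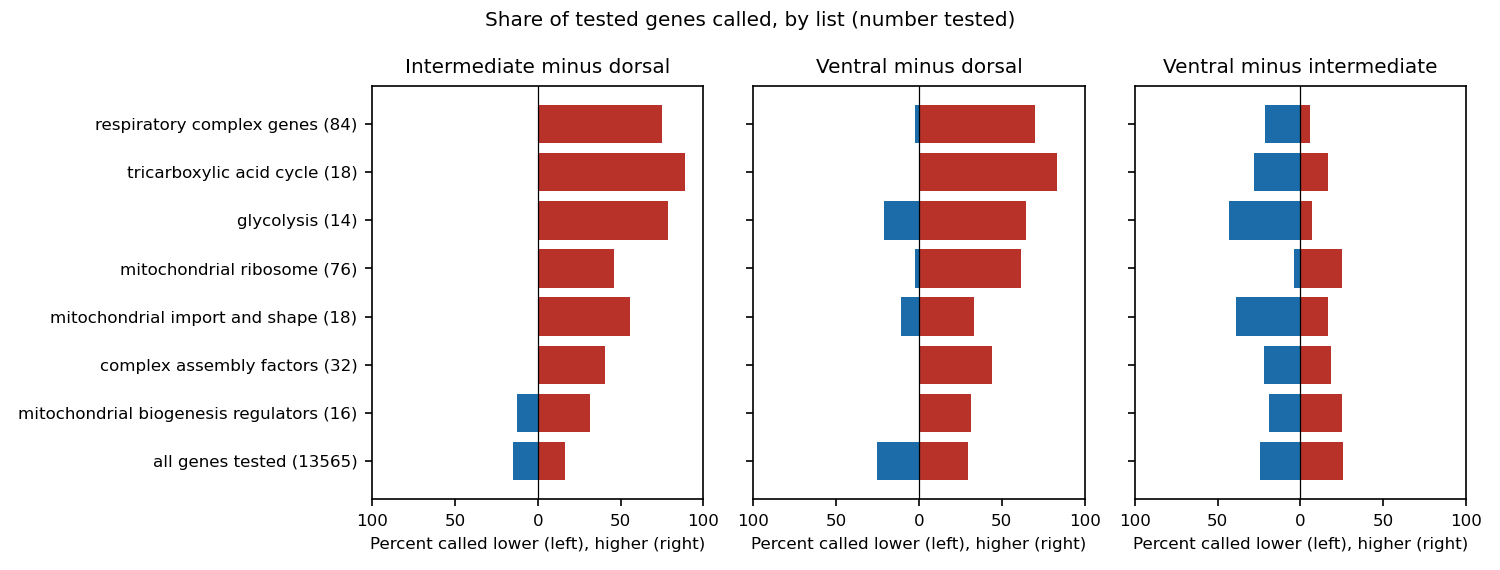
Percent of tested genes called higher (red, right) and lower (blue, left) in the 3 comparisons, for the respiratory complex genes, 6 further lists and all genes tested, with the number tested in brackets. In intermediate minus dorsal the respiratory complex genes reach 75.0% higher and 0 lower, the tricarboxylic acid cycle 88.9% and all genes 16.7%.

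Cell type markers moved with the regions as well. Sums of log2 values over a marker list are given as ranges over the 3 arrays of a region. The 5 neurofilament and large projection neuron markers summed to 49.5 to 50.7 in dorsal, 54.6 to 55 in intermediate and 63.2 to 63.8 in ventral, with 4 of 5 called higher than dorsal in each. The 8 general neuron markers summed to 103 to 104, 104 to 105 and 96.4 to 96.7, with 6 lower and 0 higher in ventral than in dorsal, while intermediate had 4 higher and 2 lower. Dorsal horn markers were all lower outside dorsal (7 of 7 in each comparison with dorsal), summing to 71.7 to 73.5, 44.2 to 50.9 and 33.4 to 33.6.

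Glial, vascular and lining cells also differed. Oligodendrocyte markers summed to 79 to 81.9, 80 to 83.4 and 91.1 to 91.6 from dorsal to ventral, 6 of 7 being higher in ventral than in dorsal and 0 of 7 called in intermediate over dorsal. Astrocyte markers summed to 89.3 to 90.4, 89.7 to 90.8 and 95.1 to 95.5, with 7 of 7 higher in ventral than in dorsal. Ependymal markers, of the cells lining the central canal, summed to 22.3 to 24.1, 39.3 to 41.4 and 37.8 to 38.4, with 6 of 6 higher than dorsal in each. Microglia markers (66.5 to 68.8, 61.3 to 62.9 and 68 to 68.9) and meningeal markers (70.9 to 80.8, 52.3 to 56.2 and 77.7 to 81.2) were lowest in intermediate, with 8 of 8 and 7 of 8 called lower there than in dorsal. Endothelial markers had 4 of 5 and mural markers 7 of 8 higher in ventral than in dorsal, with sums of 33.8 to 34.4 and 57.3 to 58.4 in dorsal and 37.6 to 38.5 and 66.2 to 68.3 in ventral.

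Motor neuron markers did not all follow the label of the ventral pieces. Chat, Slc18a3 and Slc5a7, which define cholinergic neurons, stood at the floor on all 9 arrays, readings that apply to their probe sets only. Isl1 and Prph were called higher in ventral than in dorsal, by 4.51 and 7.26. Isl1 was as high in intermediate, with 4.53 over dorsal. Of the 4 tested motor neuron markers, only Prph was called higher in ventral than in intermediate, by 7.15. Prph is also on the neurofilament list. The motor neuron list summed to 15 to 15.6, 19.6 to 20.5 and 26.5 to 28.4. For tissues rich in mitochondria, 3 of 8 muscle markers and 3 of 4 brown fat markers, including Ucp1, were at the floor on all arrays, and no muscle marker was called (limma, 0 of 5 tested). The brown fat marker that was tested, Cidea, was higher in ventral than in dorsal by 1.22 ± 0.08 (limma adjusted p = 0.000234), with region means of 6.06, 6.04 and 7.28 from dorsal to ventral. Of 3 erythroid markers on the array, 1 was at the floor on all arrays and 0 of 2 tested were called. The part of these cell types in the differences of the respiratory complex genes was not tested.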

How the data were processed

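Affymetrix arrays of 9 pieces of mouse spinal cord were used; per the labels' protocols, 500 ng of total RNA was labelled with a 3' in vitro transcription kit. The deposited values were taken to be log2 because they run from 2.15 to 16.3; how the authors summarised, scaled or floored them is stated in none of the labels or headers read, so scale and centring rest on that reading. Array medians over all probe sets were 3.66 to 3.75, with 36.0% to 36.3% of probe sets within 0.01 of the floor.

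Of 45037 probe sets, 34945 had 1 symbol in the platform annotation, 932 several and 9160 no entry; only the first kind was used. Genes at the floor on all 9 arrays were left out, 4628 of 18193, leaving 13565. limma 3.58.1 (R 4.3.3) fitted region and animal, as a fixed block, to all arrays (4 residual and 0.917 prior degrees of freedom), with eBayes and Benjamini-Hochberg adjustment over all genes tested, called at 0.05. Values after ± are standard errors of that model, and all tests are two-sided. The small number of arrays sets the precision. Each p-value weighs a difference against the spread left between these pieces after region and animal were fitted. Of the 84 tested members, 65 had 9 distinct values.

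Titles name the animal of each piece. Deviations from region means correlated at -0.066 to 0.246 between arrays of the same animal (mean 0.081, 9 pairs) and at -0.18 to 0.161 between animals (mean -0.041, 18 pairs).

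Members and lists were chosen with earlier results of these data known, and no list was given a test. Named members are the 2 largest called differences per complex, comparison and direction, the members of highest and lowest mean, paralogous forms, members called against their complex and those whose probe sets disagree; of each list up to 3 called genes per direction. The left-out sets are each animal and each array in turn; other alternatives are in the closing section. Fits were tested on simulated data. Promoter windows were searched with Python 3.11.15 and pandas 2.3.3, and figures drawn with matplotlib 3.10.9.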

Additional observations from a re-analysis of the deposited data

How the results depend on the processing

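Leaving out each animal and each array in turn gave 33 to 65 members higher and 0 to 2 lower in ventral than in dorsal, 18 to 64 higher in intermediate than in dorsal (0 lower in each set), and 3 to 6 higher and 3 to 22 lower in ventral than in intermediate. The medians ran from 0.20 to 0.27, 0.30 to 0.40 and -0.12 to -0.03, and 0 called members changed sign in those sets. Without the animal as a replicate block the counts higher and lower were 56 and 2, 62 and 0, and 5 and 15. Fitting only the arrays of the regions compared gave 32 members higher in intermediate than in dorsal and 1 lower in ventral than in dorsal. That count of members lower in ventral was also 1 with quantile normalization, with no filter on dim genes and with genes of 9 distinct values, and 0 with a mean of at least 10, a filter that removes both genes concerned, Cox6b2 and Cox7c. Ventral against intermediate gave 11 lower with no filter on dim genes and 3 higher with genes of 9 distinct values. Averaging all probe sets turned Atp5g1 in ventral minus dorsal to -0.06 (limma adjusted p = 0.675), and the most variable probe set turned 1 further called member, Ndufa10, from 0.47 to -0.31 by a probe set of mean 4.63; Ndufa10 was named after its values were seen. Centring arrays on their medians and quantile normalization turned the sign of 0 called members. The causes were not tested, apart from filters that leave out the genes themselves.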

Other observations

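Probe sets that carry several symbols, and so name no single gene, were not used above. Of 10 that include a respiratory complex symbol, the 6 with a mean above 11 had region means in the order dorsal, ventral, intermediate, and the other 4 had means of 2.15 to 3.42. A probe set of Ndufa11 and Ndufa11b had means of 11.52 in dorsal, 12 in intermediate and 11.83 in ventral. One of Ndufs6 and Ndufs6b had 11.56, 11.88 and 11.81, and one of Ndufab1 and its pseudogene 11.34, 11.88 and 11.77. These values were chosen after they were seen and have no test.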
